A study of Rattus norvegicus with 11 samples.

Results

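The genes described here are 9 endothelial leukocyte adhesion molecules and partners, namely the selectins Sele and Selp, the immunoglobulin-family receptors Icam1, Vcam1 and Madcam1, the chemokine-binding protein Ackr1, the junction proteins Pecam1 and Cdh5, and the leukocyte ligand Selplg. They were chosen by name, and all 9 were found among the 24481 genes with read counts and the 24205 genes with FPKM (read fragments scaled to transcript length and library size). Ileum RNA of 11 rats was sequenced, 3 control, 4 with severe acute pancreatitis (SAP) and 4 with SAP that also received JZL184. JZL184 inhibits monoacylglycerol lipase, the enzyme that breaks down the endocannabinoid 2-arachidonoylglycerol. All were Sprague-Dawley rats of 6 to 8 weeks, described in the methods of the study as male, and were killed 24 h after the injections. In the SAP and JZL184 groups, 3% sodium taurocholate, a bile salt, had been infused into the biliopancreatic duct at 0.1 ml per 100 g body weight. The JZL184 group received JZL184 intraperitoneally at 10 mg/kg and the others vehicle. What operation the control rats had is not stated in the sources used here, and their labels name a control plasmid, while the labels of the SAP rats name oil.

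Blood leukocytes leave a venule in steps. Selectins on activated endothelium catch passing cells by the sugars on ligands such as the product of Selplg, which slows the cells to a roll. Chemokines held on the vessel wall then switch leukocyte integrins to a binding state, the integrins grip Icam1, Vcam1 or Madcam1 products, and the cell passes the junction that Pecam1 and Cdh5 products help to hold. In the gut, Madcam1 is the receptor by which lymphocytes home to the mucosa. Cytokines such as tumor necrosis factor and interleukin-1 are known to switch on Sele, Icam1 and Vcam1 through NF-kB in cultured endothelium.

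Between 26341299 and 33847135 reads per library lay on genes. Between control libraries 1 and 2 there was hardly more than counting noise, with a chi-square per gene of 2.81 against 77.5 to 563 in the other pairs of a group, and were counted as 1 sample, so that n = 2 in the control group. Libraries 1 and 2 of the SAP group stood apart from SAP libraries 3 and 4, with a mean squared log2 difference of 1.18 across this divide and 0.231 within each pair. The FPKM summed to between 484256 and 494474 in SAP libraries 1 and 2 and to between 596324 and 679911 in the others. SAP library 2 held 7826 Xist reads and 20 reads of Y-linked genes, where the other libraries held at most 56 and at least 1222, which goes against a male rat. The labels call the cells intestinal epithelial cells and the source ileum tissue. Endothelial genes were measured in every library, with an FPKM summed over 18 genes of vessel identity (such as Kdr, Tie1 and Cldn5) of 88.7 to 94.5 in control, 82.2 to 135 in SAP and 62.7 to 135 in JZL184. Epithelial markers summed to between 8761 and 25502. In tissue of this kind, fewer cells of a type and less RNA per cell cannot be told apart.

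On the FPKM scale, the level of these genes in control ileum was highest for Pecam1 (8.42 ± 0.555 FPKM, SD, n = 2), then Madcam1 (6.12 ± 0.647). Selplg and Icam1 followed with overlapping ranges, then Cdh5, Vcam1 and Ackr1. Selp (0.055 ± 0.0212) and Sele (0.03 in every control library) were lowest. In SAP, the first 6 places were held by Pecam1, Madcam1, Cdh5, Icam1, Selplg and Vcam1, and no neighbours in that order differed beyond the range of the rats, while Ackr1, Selp and Sele lay below Vcam1 in every rat. In JZL184, Pecam1, Madcam1 and Icam1 had the highest means and overlapped. The ranges of Pecam1 and Icam1 lay above that of Cdh5 (1.81 to 4.69 FPKM), the next gene, and the range of Madcam1 (4.48 to 13.28) overlapped it. The other 6 genes formed an overlapping row, in which Sele (1.55 ± 0.907, n = 4) and Selp (1.54 ± 0.421) had a higher mean than Ackr1 (1.14 ± 0.619). Over all libraries, the highest value was 103 times the lowest for Selp and 84 times for Sele, but 2.33 times for Pecam1.

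**Figure D1:**
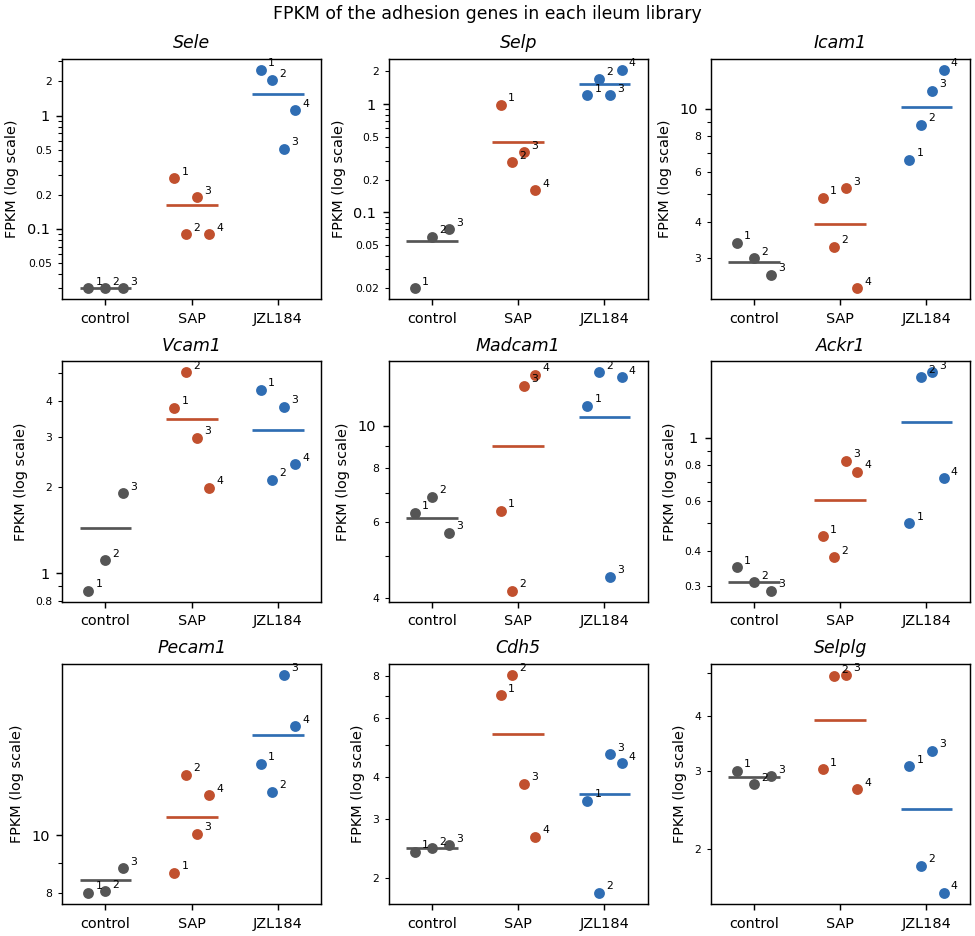
FPKM of each gene (log axis) in the libraries of the control, SAP and JZL184 groups; points are libraries with their replicate number and the line is the group mean, with control libraries 1 and 2 averaged as 1 sample. All 4 JZL184 libraries lie above all SAP libraries for Sele, Selp and Icam1, while JZL184 and SAP overlap for Vcam1, Madcam1, Ackr1, Pecam1, Cdh5 and Selplg.

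Sele and Selp, which code for E-selectin and P-selectin, were the 2 genes called between JZL184 and control ileum. Sele had an FPKM of 0.03 in all 3 control libraries. In the SAP rats, the FPKM of Sele was 0.28, 0.09, 0.19 and 0.09, and in the JZL184 rats it was 2.52, 2.05, 0.51 and 1.11. The 3 groups did not overlap, and the lowest JZL184 rat lay above the highest SAP rat. These levels rest on 3, 4 and 3 reads in the control libraries, 11 to 39 per SAP library and 58 to 324 per JZL184 library. Selp was at an FPKM of 0.02, 0.06 and 0.07 in control libraries. It was at 0.99, 0.29, 0.36 and 0.16 in SAP, and at 1.20, 1.71, 1.20 and 2.06 in JZL184. The order of the groups was again control, SAP, JZL184 with no overlap, though SAP rat 1 came near the lowest JZL184 rats. Control libraries held 2, 6 and 7 Selp reads.

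Against control, JZL184 ileum had higher Sele by a log2 fold change of 5.68 (SE 0.87, adjusted p = 0.0239) and higher Selp by 4.86 (SE 0.57, adjusted p = 0.0144), by edgeR's quasi-likelihood test with Benjamini-Hochberg adjustment over 15916 genes. A call needed an adjusted p below 0.05 together with a change of more than 2-fold in either direction. With these rules, 1.02% of all genes tested were called higher in this comparison and 1.14% lower, and of the 9 genes 2 were called, both higher. As plain ratios of the pooled reads of a group to all its reads on genes, Sele was 56.1 times the control level (95% exact interval 30.3 to 117) and Selp 32.0 times (19.2 to 57.5), with intervals that cover counting error only. The adjusted p rose to 0.181 for Sele and 0.140 for Selp without control library 3, to 0.0635 and 0.0540 without JZL184 library 2, and to 0.390 and 0.331 without control libraries 1 and 2. The log2 fold changes stayed between 5.41 and 5.98 for Sele and between 4.60 and 5.14 for Selp when single libraries were left out.

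Between JZL184 and SAP, which both carried pancreatitis, Sele differed by a log2 fold change of 3.43 (SE 0.60, unadjusted p = 0.000196) and Selp by 2.00 (SE 0.53, unadjusted p = 0.00351). The adjusted p was 0.0693 and 0.106 in edgeR, so neither was called, and neither was any other of 15308 genes (0% called higher and 0% lower), with 3267 genes in either direction at an unadjusted p below 0.05. Sele stood at rank 42 of these genes by p. Adjusted p-values for Sele and Selp were 1.8e-06 and 0.0069 in DESeq2 and 0.0315 and 0.0325 in limma-voom with sample weights. In FPKM, both selectins reached the smallest p that 4 against 4 rats allow in a two-sided exact permutation test, 0.0286. Pooled in the same way, reads were 9.68 times higher in JZL184 for Sele (7.70 to 12.3) and 3.30 times for Selp (2.82 to 3.88). Without SAP libraries 1 and 2, the log2 fold change was 3.53 for Sele and 2.67 for Selp. Without JZL184 library 1, edgeR's adjusted p for Sele was 0.0368.

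For SAP against control, the log2 fold change was 2.29 for Sele (SE 0.72, adjusted p = 0.459) and 2.90 for Selp (SE 0.84, adjusted p = 0.459). Without SAP library 1, the highest of its group for both, it was 1.93 for Sele and 2.21 for Selp. No gene of 16029 was called in edgeR (0% called higher and 0% lower), with 1457 genes in either direction at an unadjusted p below 0.05. Selp passed in DESeq2 with an adjusted p of 0.0352, and Sele did not (0.174). Every SAP library was above every control library for both genes.

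**Figure D2:**
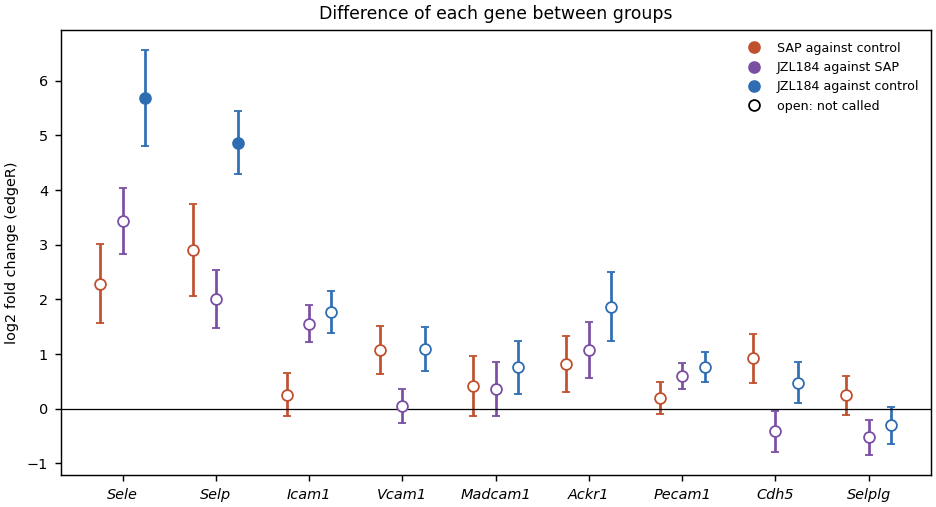
Log2 fold change of each gene in 3 comparisons by edgeR, with bars of 1 SE; filled points were called, open points were not. The filled points are Sele at 5.68 and Selp at 4.86 in JZL184 against control.

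Icam1, Vcam1 and Madcam1 bind leukocyte integrins. Of the 9 genes, 4 matched the RefSeq promoter table of the GRCr8 rat genome, these 3 and Sele. The 250 bases before the annotated start are shown for the integrin ligands, since the letters of an NF-kB site can be read in each. Capitals mark matches to the kB motif GGNNNTTCC on either strand, searched from 250 bases before to 50 bases after the start. For Icam1 (chr8:27829595-27829844, plus strand) the matches begin 218 and 149 bases before the start, for Vcam1 (chr2:206742784-206743033, minus strand) 246 and 93 bases, and for Madcam1 (chr7:10690323-10690572, minus strand) 118 and 105 bases.
Icam1: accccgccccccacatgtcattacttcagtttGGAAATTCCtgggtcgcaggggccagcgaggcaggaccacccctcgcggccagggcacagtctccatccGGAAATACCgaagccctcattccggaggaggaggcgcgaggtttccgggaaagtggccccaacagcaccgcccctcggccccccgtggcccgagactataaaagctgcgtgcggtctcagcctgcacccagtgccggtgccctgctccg
Vcam1: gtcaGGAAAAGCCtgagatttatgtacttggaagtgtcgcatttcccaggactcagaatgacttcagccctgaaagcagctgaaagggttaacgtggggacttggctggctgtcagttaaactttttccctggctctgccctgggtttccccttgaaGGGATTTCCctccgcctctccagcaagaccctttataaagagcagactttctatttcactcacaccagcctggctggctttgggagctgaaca
Madcam1: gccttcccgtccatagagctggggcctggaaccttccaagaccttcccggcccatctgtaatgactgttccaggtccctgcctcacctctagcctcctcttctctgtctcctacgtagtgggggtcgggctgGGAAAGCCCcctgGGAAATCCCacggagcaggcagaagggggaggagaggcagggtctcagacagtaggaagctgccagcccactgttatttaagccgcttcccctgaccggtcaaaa
The kB motif occurred in 18.3% of 33365 rat promoters of this length. The stricter NF-kB consensus overlapped the second Vcam1 match and both Madcam1 matches, and was found in 4.19% of promoters. A TATAAA motif, present in 14.2% of promoters, lay 53 bases before the start of Icam1 and 62 and 60 bases before that of Vcam1, overlapping on opposite strands. The AP-1 motif TGANTCA (7.34% of promoters) and the ETS motifs CAGGAAG or CCGGAAG (20.1%) were not found in these windows. No motif searched was found in the window of Sele, which says only that these letters are not there. These matches are a description of letters, and binding was not measured. Selp, Ackr1, Pecam1, Cdh5 and Selplg had no entry.

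Icam1 was highest in the JZL184 rats. Its FPKM was 3.38, 2.98 and 2.61 in control libraries and 4.87, 3.27, 5.26 and 2.34 in SAP, which overlapped. In JZL184, the FPKM of Icam1 was 6.63, 8.79, 11.58 and 13.69, above every library of both other groups. The log2 fold change was 1.55 against SAP (SE 0.34, unadjusted p = 0.00100, adjusted p = 0.0851) and 1.78 against control (SE 0.38, unadjusted p = 0.00141, adjusted p = 0.0541) in edgeR, so neither was called. Adjusted p-values were 0.00258 and 0.00151 in DESeq2 and 0.0341 and 0.00809 in limma-voom. The exact permutation test on FPKM gave 0.0286 against SAP, the smallest p possible. Without JZL184 library 1, the adjusted p of edgeR was 0.0318 against SAP and 0.0143 against control, and without JZL184 library 3 it was 0.0381 against control. Leaving out any other single library gave an adjusted p of 0.0757 to 0.217 against SAP. Without control library 1 or control library 2, the adjusted p against control was 0.0510 and 0.0612. SAP against control gave a log2 fold change of 0.26 (SE 0.39, adjusted p = 0.735).

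Vcam1 had another order, with every SAP and JZL184 library above every control library in FPKM. The FPKM of Vcam1 was 0.87, 1.11 and 1.90 in control, 3.79, 5.03, 2.97 and 1.99 in SAP, and 4.37, 2.12, 3.81 and 2.40 in JZL184. For Vcam1 the log2 fold change was 1.08 in SAP (SE 0.43, adjusted p = 0.459) and 1.09 in JZL184 (SE 0.40, adjusted p = 0.135) against the same control libraries, and neither was called. Between JZL184 and SAP the log2 fold change was 0.05 (SE 0.31, adjusted p = 0.934). The difference of the Icam1 and Vcam1 patterns was not tested.

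Madcam1, the gut homing receptor, did not separate the groups. Its FPKM was 6.29, 6.86 and 5.66 in control, 6.36, 4.16, 12.35 and 13.10 in SAP, and 11.10, 13.28, 4.48 and 12.93 in JZL184. Values near 13 and values under 5 occurred in both pancreatitis groups. The log2 fold changes were 0.42 (SE 0.55) in SAP and 0.76 (SE 0.49) in JZL184 against control, and 0.36 (SE 0.50) between them, with adjusted p of 0.701, 0.35 and 0.682. In SAP, the low values of Madcam1 were those of libraries 1 and 2, and without them the log2 fold change was 0.99 against control and -0.21 for JZL184 against SAP.

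Ackr1, which codes for a receptor of venules that carries chemokines to the vessel lumen without signaling, was low in all rats. The FPKM of Ackr1 was 0.35, 0.31 and 0.29 in control, 0.45, 0.38, 0.83 and 0.76 in SAP, and 0.50, 1.64, 1.70 and 0.72 in JZL184. The JZL184 rats lay above control without overlap but overlapped SAP. The log2 fold change of Ackr1 in JZL184 was 1.87 against control (SE 0.63, adjusted p = 0.117) and 1.07 against SAP (SE 0.51, adjusted p = 0.257), and neither was called in edgeR. Against control, DESeq2 gave an adjusted p of 0.0277 and edgeR without JZL184 library 1 gave 0.0381. Limma-voom gave 0.0542, and edgeR gave 0.115 without control library 1 and 0.127 without control library 2. Ackr1 was called in 4 of 20 alternatives against control and in 0 of 19 against SAP. The log2 fold change of SAP against control was 0.83 (SE 0.51, adjusted p = 0.468).

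Pecam1 and Cdh5 hold endothelial cells to each other. Pecam1 had an FPKM of 8.00, 8.05 and 8.81 in control, 8.66, 12.64, 10.06 and 11.68 in SAP, and 13.19, 11.84, 18.63 and 15.26 in JZL184. All JZL184 rats exceeded all control rats, and 1 SAP rat lay above the lowest JZL184 rat. The log2 fold change of Pecam1 was 0.76 against control (SE 0.27, adjusted p = 0.128) and 0.60 against SAP (SE 0.24, adjusted p = 0.200), in each case below a doubling, and 0.19 for SAP against control (SE 0.29, adjusted p = 0.736). Cdh5, the cadherin of the endothelial adherens junction, had an FPKM of 2.40, 2.46 and 2.51 in control, 7.02, 8.08, 3.82 and 2.66 in SAP, and 3.40, 1.81, 4.69 and 4.40 in JZL184. Here the highest values were those of SAP libraries 1 and 2. SAP against control gave a log2 fold change of 0.92 for Cdh5 (SE 0.45, adjusted p = 0.459), which was 0.32 without these 2 libraries. JZL184 against SAP gave -0.41 (SE 0.37, adjusted p = 0.519), which was 0.18 without them, and JZL184 against control 0.48 (SE 0.37, adjusted p = 0.442). With offsets for gene length, the log2 fold change of Cdh5 was 0.63 for SAP against control. It was -0.22 for JZL184 against SAP and 0.42 for JZL184 against control with these offsets. The part of gene length in the Cdh5 levels was not tested.

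Selplg, made by leukocytes and bound by both selectins, did not separate the groups. The FPKM of Selplg was 3.01, 2.80 and 2.92 in control, 3.03, 4.92, 4.96 and 2.73 in SAP, and 3.08, 1.83, 3.34 and 1.59 in JZL184. Against control the log2 fold change of Selplg was 0.24 for SAP (SE 0.35) and -0.30 for JZL184 (SE 0.34), and it was -0.52 between JZL184 and SAP (SE 0.32), with adjusted p of 0.722, 0.593 and 0.347.

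The share of the 9 genes on each measure can be read beside that of all genes. At an unadjusted p below 0.05, edgeR had 3 of the 9 higher in SAP against control, 4 in JZL184 against SAP and 6 in JZL184 against control, where all genes gave 5.69%, 10.3% and 13.8%. Called in DESeq2 were 1 (Selp), 3 (Sele, Selp and Icam1) and 4 (these and Ackr1), with 0.86%, 3.57% and 5.8% of all genes called higher. Called in limma-voom were 0, 3 and 3 (Sele, Selp and Icam1 in both), with 0.0499%, 2.18% and 8.48% of all genes. In CPM (counts scaled to library size), the groups did not overlap, with the first group higher, for 4, 4 and 6 of the 9 genes, and for 11.3%, 6.23% and 18.9% of all genes. The median log2 fold change of the 9 genes was 0.83, 0.60 and 1.09, and that of all genes 0.06, -0.05 and 0.08. The comparisons share libraries and are given side by side only. In two-sided exact permutation tests on FPKM, no gene could reach a p below 0.0667 in a comparison with control, which Selp alone reached (JZL184 against control), and Sele gave 0.133.

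The selectins and Icam1 were also set against endothelial genes of each library, as percent of the summed FPKM of the 18 endothelial identity genes. Plvap was the largest part of this sum, at a mean of 43.2 FPKM in control, 44.1 in SAP and 37.7 in JZL184. It ranged from 13.5 to 57.9 in JZL184, so the percentages rest much on this 1 gene. Sele came to 0.0329% in control, 0.162% in SAP (0.0818 to 0.340) and 1.76% in JZL184 (0.378 to 4.02). Selp came to 0.0609% in control, 0.474% in SAP (0.145 to 1.20) and 1.49% in JZL184 (0.891 to 1.91). On this scale SAP and JZL184 overlapped for Selp, through SAP library 1, and did not for Sele. Icam1 came to 3.17% in control, 3.77% in SAP (2.13 to 5.92) and 9.49% in JZL184 (7.38 to 11.4), again with JZL184 above all others. Of the endothelial identity genes, none was called in any comparison in edgeR, and their median log2 fold change was 0.33, -0.04 and 0.36 for SAP against control, JZL184 against SAP and JZL184 against control. At an unadjusted p below 0.05, 2, 3 and 5 of the 18 genes differed in either direction, where 9.09%, 21.3% and 26.3% of all genes did. Those of the smallest p were Cd93 in SAP (1.69, SE 0.61, adjusted p = 0.459) and Clec14a in JZL184, at 1.15 against SAP (SE 0.31, adjusted p = 0.110) and 1.90 against control (SE 0.44, adjusted p = 0.0629).

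Other cells hold some of these transcripts as well. Platelets carry P-selectin, and 7 of 9 platelet markers were in the tables, with a summed FPKM of 8.36 to 29.2 in control, 13.5 to 35 in SAP and 13.6 to 35.1 in JZL184. The platelet markers Gp1ba and Treml1 were below an FPKM of 0.1 in every library, and 3 of the 9 markers could be tested, with none called and the smallest p for Gp6 (1.66 in JZL184 against control, adjusted p = 0.122) and Itga2b (1.64 in JZL184 against SAP, adjusted p = 0.0909). Neutrophil markers, which tell of the cells that selectins catch, summed to 2.47 to 6.17 in control, 10.2 to 84.2 in SAP and 13.7 to 255 in JZL184. This sum was above control in every rat with pancreatitis and overlapped between SAP and JZL184. In SAP and JZL184 its parts with the highest means were S100a8 (54.4 ± 64.5 FPKM in JZL184, n = 4) and S100a9 (34.5 ± 41.4). Of 9 markers tested, 8 had a log2 fold change above 0 in SAP against control and 7 in JZL184 against control. The medians were 2.29 and 1.84. At an unadjusted p below 0.05 in edgeR, SAP had 5 higher and 1 lower, where 5.69% and 3.4% of all genes were. JZL184 had 3 higher and 1 lower against control, where 13.8% and 12.5% were. Not all markers followed the sum. Mpo, the myeloperoxidase of neutrophil granules, was at a mean of 0.458 FPKM in control, 0.198 in SAP and 0.182 in JZL184, without overlap with control, and Retnlg was at 1.90, 2.41 and 0.358 (both named after their values were seen). None of the markers tested was called. S100a8 had a log2 fold change of 7.35 against control (SE 1.65, adjusted p = 0.0594), Camp 2.18 against SAP (SE 1.02, adjusted p = 0.248), and Cxcr2 was listed at 0 in the control libraries and at 0.05 to 0.39 in SAP. JZL184 rat 2, the highest for neutrophil markers, was second for Sele and Selp, and the part of these cells in the result was not tested.

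**Figure D3:**
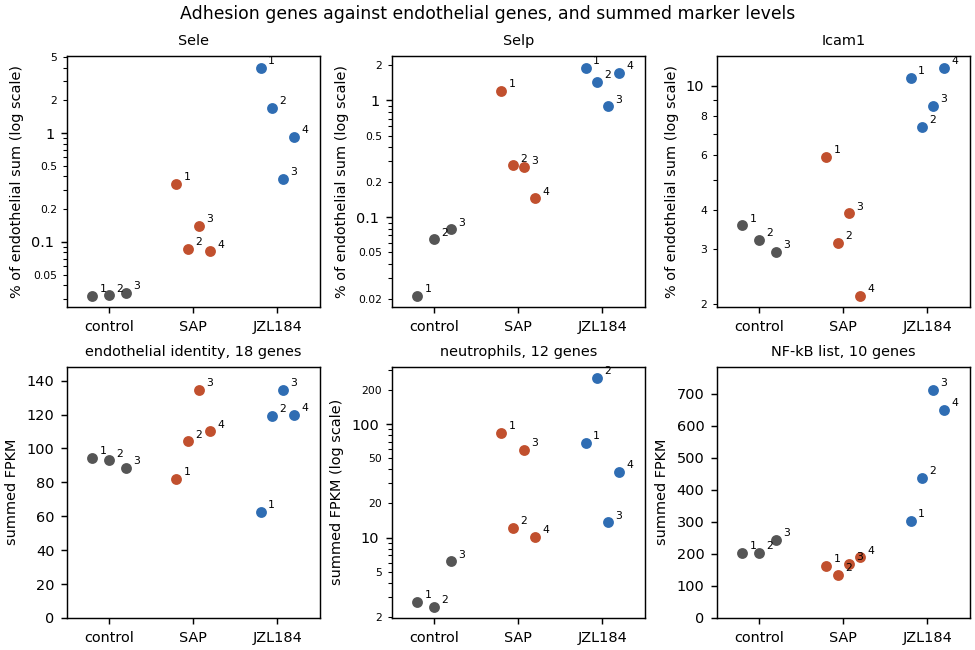
The upper panels give the FPKM of Sele, Selp and Icam1 as percent of the summed FPKM of 18 endothelial identity genes (log axes), and the lower panels give the summed FPKM of that list, of 12 neutrophil markers (log axis) and of 10 NF-kB genes; points are libraries with their replicate number. Sele and Icam1 lie higher in all JZL184 libraries than in any SAP library, SAP library 1 overlaps JZL184 for Selp, and the endothelial sums of the groups overlap.

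Cytokines and receptors that activate endothelium had 3 of 12 tested genes called higher in JZL184 against control, Il1r1 (log2 fold change 3.06, SE 0.37, adjusted p = 0.0149), Il1a (3.53, SE 0.57, adjusted p = 0.0266) and Il6 (6.18, adjusted p = 0.0372). In that comparison, 1.02% of all genes were called higher. Il1r1, which codes for the signaling receptor of interleukin-1, had an FPKM of 0.608 ± 0.230 in control (n = 2), 1.68 ± 0.458 in SAP and 5.13 ± 1.02 in JZL184 (n = 4 each), with no overlap. Il6 was at 0 to 0.21 in control, 0.43 to 2.54 in SAP and 3.38 to 10.4 in JZL184. The median log2 fold change of the tested genes was -0.07 in SAP against control, 1.25 in JZL184 against SAP and 1.42 in JZL184 against control. Summed over 15 genes, this list reached 217 to 221 FPKM in control, 138 to 262 in SAP and 289 to 468 in JZL184. Its largest parts were receptor genes. Mean FPKM in control, SAP and JZL184 was 96.0, 83.5 and 156 for Ltbr and 57.7, 61.4 and 76.2 for Ifngr1. None was called in JZL184 against SAP, where 8 of 12 were higher at an unadjusted p below 0.05, nor in SAP against control, where 2 of 13 were. Of all genes, 10.3% and 5.69% were higher at this p in these comparisons.

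NF-kB subunits and feedback genes had 1 of 10 called, Tnfaip3, which codes for an inhibitor of NF-kB signaling and rose by 3.56 in JZL184 against control (SE 0.58, adjusted p = 0.0279). In that comparison, 1.02% of all genes were called higher. Tnfaip3 was at 1.02 ± 0.318 FPKM in control, 2.32 ± 1.39 in SAP and 12.3 ± 6.42 in JZL184. The sum of these 10 genes was 203 to 245 FPKM in control, 134 to 189 in SAP and 304 to 714 in JZL184, with no overlap between the groups. Nfkbia was the largest part of this sum, at a mean of 138 FPKM in control, 87.6 in SAP and 405 in JZL184. Gene by gene, 4 of the 10 had a log2 fold change above 0 in SAP against control and 9 in JZL184 against SAP. Against SAP, 6 of the 10 were higher in JZL184 at an unadjusted p below 0.05, where 10.3% of all genes were. The median log2 fold change of the list was 0.91, with 0 called. For SAP against control the median was -0.25, with no gene at an unadjusted p below 0.05.

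Leukocyte integrins and other leukocyte adhesion receptors had 1 of 13 called, in JZL184 against control, where 1.14% of all genes were called lower. Itgb7, the beta chain of the integrin that binds Madcam1, fell in JZL184 against control by 2.46 on the log2 scale (SE 0.39, adjusted p = 0.0260). Itgb7 was at 11.5 ± 0.926 FPKM in control, 5.42 ± 2.94 in SAP and 2.15 ± 0.985 in JZL184. The integrin chain of lymphocytes that binds Icam1, Itgal, named here after its values were seen, had the smallest p of the list between JZL184 and SAP (-1.57, SE 0.44, adjusted p = 0.119), at 0.843 ± 0.465 FPKM in JZL184 and 2.77 ± 1.51 in SAP. The median log2 fold change of the list was 0.43 in SAP against control, -0.56 in JZL184 against SAP and 0.18 in JZL184 against control. At an unadjusted p below 0.05 there were 4 higher and 1 lower, 0 higher and 4 lower, and 2 higher and 3 lower in these comparisons. Among all genes, 5.69%, 10.3% and 13.8% were higher and 3.4%, 11.1% and 12.5% were lower.

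No gene was called on the lists of other adhesion proteins, selectin ligand synthesis, the Cdh5 complex or endothelial quiescence. Other endothelial adhesion and transmigration proteins gave medians of -0.02, -0.26 and -0.14 in SAP against control, JZL184 against SAP and JZL184 against control, and the smallest p went to Ceacam1 (1.55, adjusted p = 0.459), Stab1 (adjusted p = 0.128) and Aoc3 (-1.40, adjusted p = 0.0692). Aoc3, which codes for a vascular adhesion protein and amine oxidase, was at 18.8 ± 0.580 FPKM in control, 11.6 ± 5.58 in SAP and 7.36 ± 2.60 in JZL184. Enzymes that make selectin ligands gave medians of 0.10, 0.54 and 0.50, led by Fut7 (-1.63, adjusted p = 0.459), Chst2 (0.97, adjusted p = 0.143) and St3gal6 (1.23, adjusted p = 0.149) in the same 3 comparisons. Fut7, the fucosyltransferase of leukocyte selectin ligands, was at 0.395 ± 0.0636 FPKM in control, 0.142 ± 0.0499 in SAP and 0.237 ± 0.110 in JZL184. Partners of Cdh5 in its complex gave 1.42, -0.37 and 0.08, led by Afdn (1.42, adjusted p = 0.459), Vcl (-1.69, adjusted p = 0.184) and Ptprb (1.19, adjusted p = 0.158). Vcl and Ptprb, like Cdh5, had their mean highest in SAP, at 6.38 ± 5.50 and 1.56 ± 1.19 FPKM. Summed over the 7 partners, the FPKM was 380 and 367 in SAP libraries 1 and 2, which stood apart, but 242 and 207 in SAP libraries 3 and 4, against 213 to 228 in control. The largest parts of this sum in control were Ctnnb1 (94.3 FPKM) and Ctnna1 (83.4). Of the 7, 5 had a log2 fold change above 0 in SAP against control, and the mean of Jup was lower in SAP (16.2) than in control (23.3). The cells that hold these transcripts were not tested. Genes of endothelial quiescence and barrier gave 0.61, 0.39 and 1.04, led by Nos3 against control (1.71 in SAP, adjusted p = 0.459, and 1.58 in JZL184, adjusted p = 0.0656) and by S1pr1 in JZL184 against SAP (1.18, adjusted p = 0.0965).

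**Figure D4:**
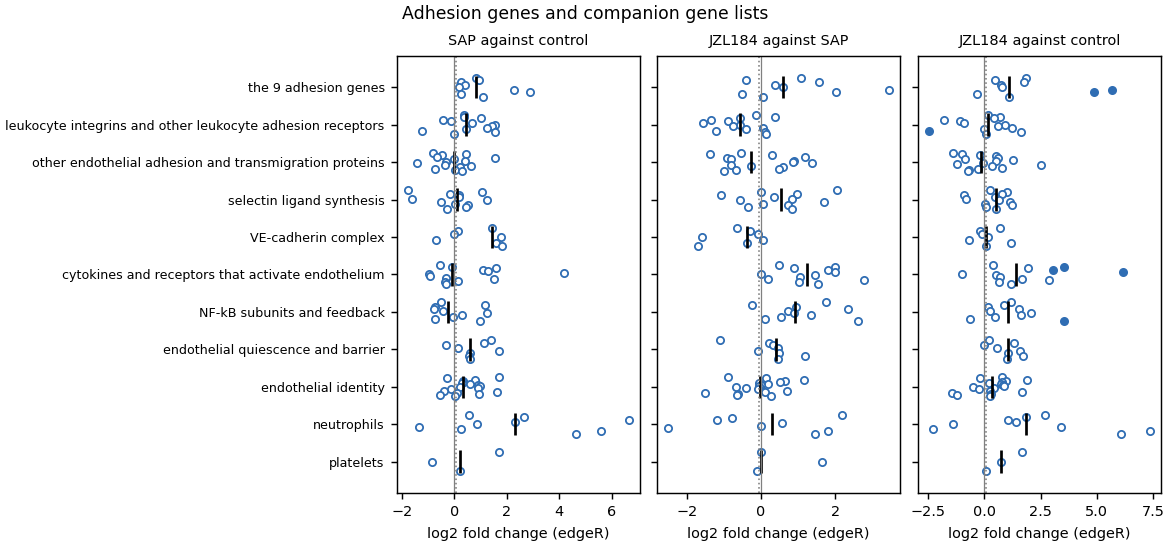
Log2 fold change by edgeR of the 9 adhesion genes and of companion genes, by list, in 3 comparisons; each point is 1 gene, filled if called, the black bar is the median of the list, the grey line is 0 and the dotted line is the median of all genes tested. Filled points occur in JZL184 against control alone, with Sele and Selp among the 9 genes, Il6, Il1a and Il1r1 among the cytokines and receptors, Tnfaip3 among the NF-kB genes and Itgb7, which is lower, among the leukocyte receptors.

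For each gene, the 3 others of 11265 genes with the most similar course over the 10 samples were found, by the root mean square difference of centred log2 CPM. Sele was closest to Tgm1 (0.42), A2m (0.51) and Mfsd2a (0.55), all farther from it than the nearest genes of any other member from theirs. Mfsd2a, a lipid transporter of brain vessels and other tissues, was at a mean of 3.00 FPKM in control, 4.81 in SAP and 15.5 in JZL184. Selp was closest to Sod2 (0.28), Il1r1 (0.31) and Pfkfb3 (0.33). Sod2, the mitochondrial superoxide dismutase, went from 56.3 FPKM in control to 145 in SAP and 337 in JZL184. Icam1 was closest to Tnfaip2 (0.30), H6pd (0.32) and Socs2 (0.32). Vcam1 was closest to Snx18 (0.20), Heatr5a (0.21) and Dynlt3 (0.21), and Ackr1 to Zrsr2 (0.21), Sned1 (0.21) and Ifitm5 (0.23). Madcam1 was closest to Gal (0.24), Rab24 (0.25) and Egfl7 (0.29), the last a gene of the endothelial identity list. Pecam1 was closest to Prnp (0.10), Slc25a17 (0.14) and Prkcq (0.15), Cdh5 to Apbb2 (0.13), Fam53c (0.15) and Ptpn11 (0.16), and Selplg to Evi2a (0.17), Aga (0.18) and Mrc2 (0.18). These are descriptions over few samples, and genes that vary little lie close to many others.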

How the data were processed

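Stranded mRNA libraries were made from ileum RNA of 3 control rats, 4 SAP rats and 4 JZL184 rats. P-values measure the spread between these libraries. The authors trimmed the reads and aligned them with HISAT2 to the rat genome mRatBN7.2. The authors deposited the uniquely aligned reads on each gene as raw counts, and FPKM to 2 decimals. What counted the reads, with which strand setting and annotation, is not given in the sources used here, so overlapping and antisense transcripts cannot be told apart. The 9 genes and the gene lists were chosen with earlier results of these data known.

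Control libraries 1 and 2 were summed (counts) or averaged (FPKM). Groups were compared in pairs over all genes in edgeR 4.0.16 (quasi-likelihood test, TMM normalization, filterByExpr with a minimum count of 10, R 4.3.3). A gene was called if its p, adjusted after Benjamini and Hochberg, was below 0.05 and its fold change exceeded 2 or lay below 0.5. DESeq2 1.42.0, limma-voom with sample weights (limma 3.58.1), other filters, other scaling, offsets for gene length (loess, span 0.3), the replicate number as a block and left-out libraries were alternatives. FPKM differences were tested with two-sided exact permutation tests, given unadjusted and used for no call. Total counts per library were between 26341299 and 33847135, so that counting error was small except for Sele, Selp and Ackr1. Exact Poisson and binomial intervals are at 95%. The test scripts were tested on simulated data. Same-numbered libraries of different groups did not deviate together.

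The 16 lists were leukocyte receptors, other endothelial adhesion proteins, selectin ligand synthesis, the VE-cadherin complex, activating cytokines and receptors, NF-kB, endothelial quiescence, and markers of vessel identity, lymphatic endothelium, neutrophils, monocytes and macrophages, platelets, T cells, B cells, epithelium, and fibroblasts and muscle. Of each list the genes called, or else those of the smallest p per comparison, are named, and for each of the 9 genes the 3 of most similar course (mean count of at least 100). Promoter sequences are RefSeq's of GRCr8, another build than that of the files. Python 3.11.15 with scipy 1.17.1 and matplotlib 3.10.9 was used. Splicing was not analysed here.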

Additional observations from a re-analysis of the deposited data

How the results depend on the processing

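The log2 fold changes of Sele, Selp and Icam1 kept their sign in JZL184 against SAP and against control under every alternative in which they were tested, and the calls did not. Of the 9 genes, JZL184 against control had 2 called, and 4 in DESeq2, 5 with control libraries 1 and 2 as separate samples, 5 in DESeq2 with them separate (chosen after seeing the data), 3 with a block for the replicate number, 1 with at least 10 reads in every library (Icam1, since Sele and Selp were not tested), 0 without control libraries 1 and 2 and 0 to 4 when single libraries were left out (0 without control library 3 or JZL184 library 2, 4 without JZL184 library 1). The calls over all genes moved as well in that comparison. They were 343 of 15916, 1899 of 17598 in DESeq2 and 2800 of 15427 with control libraries 1 and 2 separate. DESeq2 with these separate had 3497 of 18021. There were 1488 of 15427 with the block and 328 of 13542 with at least 10 reads in every library. There were 25 of 15836 without JZL184 library 2 and 1867 of 15623 without JZL184 library 1. JZL184 against SAP had 0 called, and 3 in DESeq2, 3 in limma-voom, 1 with no filter on low counts, 2 with all 3 groups in 1 fit and 0 to 2 when single libraries were left out (2 without JZL184 library 1). Over all genes there were 0 of 15308, 1283 of 18385 in DESeq2, 699 of 15308 in limma-voom and 655 of 15540 without JZL184 library 1. With no filter on low counts there were 27 of 24116, and with all 3 groups in 1 fit 207 of 16570. SAP against control had 0 called, and 1 in DESeq2 and 3 in DESeq2 with control separate. Over all genes these were 0 of 16029, 208 of 16971 and 1434 of 16958. Adjusted p for JZL184 against SAP ranged over the alternatives from 1.8e-06 to 0.191 for Sele, 0.0069 to 0.259 for Selp and 0.00258 to 0.217 for Icam1, and against control from 1.1e-13 to 0.390, 1.3e-16 to 0.331 and 2.0e-05 to 0.529. Replicate numbers did not pair the libraries. With the replicate block, JZL184 against control gave 5.58 for Sele, 4.78 for Selp and 1.51 for Icam1 (adjusted p = 0.0373), and no gene of the 9 was called in the other comparisons. Genes that were not called reversed as follows. In SAP against control, Madcam1 was at -0.0875 with the block, and Pecam1 at -0.0173 with offsets for gene length and -0.24 with these and the block. In JZL184 against SAP, Vcam1 was at -0.0638 in limma-voom and at -0.105 to 0.247 when single libraries were left out, and without SAP libraries 1 and 2 Madcam1 was at -0.21 and Cdh5 at 0.18. With single libraries left out, the mean FPKM of JZL184 minus that of SAP ranged from -0.755 to 0.258 for Vcam1 (above 0 without JZL184 library 2 or SAP library 2) and from -0.156 to 3.44 for Madcam1 (below 0 without SAP library 2). The exact permutation p of FPKM for JZL184 against SAP was 0.0571 for Sele and Icam1 whichever SAP library was left out and for Selp whichever JZL184 library was left out, and 0.0286 for these genes when a library of the other group was left out. For Pecam1 it was 0.0286 without JZL184 library 2. The FPKM of Sele, Selp and Icam1 did not overlap between JZL184 and SAP, which leaving out a library cannot alter, so this was no check of them. Their p of 0.0571 occurred in groups of unequal size. The cause of these and the other changes was not tested. Control levels of Sele and Selp rest on 10 and 15 reads in all, which limits their fold changes.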

Other observations

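Lists of other cell types had a few genes called, all in JZL184 against control, where 1.02% of all genes were called higher and 1.14% lower. Pdpn, a gene of lymphatic endothelium and of fibroblasts, rose by 1.83 on the log2 scale (SE 0.36, adjusted p = 0.0452), and was at 3.58 ± 0.283 FPKM in control (n = 2), 12.9 ± 4.61 in SAP and 12.9 ± 2.69 in JZL184 (n = 4 each). Summed over the 7 lymphatic genes, the FPKM was 140 to 175 in control, 89.1 to 241 in SAP and 183 to 274 in JZL184. The macrophage scavenger receptors Cd163 (2.99, SE 0.55, adjusted p = 0.0398) and Mrc1 (2.34, SE 0.46, adjusted p = 0.0454) rose, but most genes of their list did not. Of the 12 monocyte and macrophage genes, 4 had a log2 fold change above 0 in this comparison, with a median of -0.24. At an unadjusted p below 0.05, 3 were higher and 2 lower, where 13.8% and 12.5% of all genes were. The sum of the 12 genes was 1409 to 1575 in control, 831 to 2523 in SAP and 517 to 1348 in JZL184. Its largest part was Lyz2, at a mean of 1095, 1407 and 736 FPKM in these groups. Cxcl13, the chemokine that draws B cells to follicles, rose by 1.77 (SE 0.36, adjusted p = 0.0476), and the other 11 genes of the B cell list were not called, with sums of 97.0 to 114 in control, 29.6 to 90.2 in SAP and 69.7 to 164 in JZL184. Col1a1, a collagen of fibroblasts, fell by 2.49 (SE 0.50, adjusted p = 0.0462), where the list of fibroblasts, pericytes and smooth muscle summed to 968 to 1005 in control, 608 to 1241 in SAP and 302 to 1273 in JZL184.

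No T cell or epithelial gene was called. T cell genes summed to 151 to 174 FPKM in control, 56.9 to 171 in SAP and 103 to 137 in JZL184, and the smallest p of the list went to Cd3e in SAP against control (-0.80, adjusted p = 0.463), Lck in JZL184 against SAP (-0.75, adjusted p = 0.294) and Cd4 in JZL184 against control (-1.22, adjusted p = 0.0586). Epithelial genes summed to 25095 to 25502 in control, 10650 to 20353 in SAP and 8761 to 17640 in JZL184, led by Krt8 in SAP (-1.28, adjusted p = 0.459) and JZL184 (-1.46, adjusted p = 0.0576) against control and by Vil1 in JZL184 against SAP (-1.06, adjusted p = 0.151). The epithelial sum was lower than control in every rat with pancreatitis, and its part in the FPKM of the adhesion genes was not tested. Not every gene of the list fell. Of the 10, 2 had a log2 fold change above 0 in SAP against control and 3 in JZL184 against control. Mean FPKM in control, SAP and JZL184 was 112, 144 and 172 for Cdh1 and 108, 214 and 185 for Cdh17. It was 7157, 3624 and 2420 for Krt20 (these 3 named after their values were seen).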
